A study of Mus musculus with 10 samples.

Results

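The 2-week and the 8-week lists of m6A peaks in mouse liver were set against each other, from the suckling period to the adult. N6-methyladenosine (m6A) was mapped by pulling fragmented RNA down with an antibody against the mark (IP) and comparing it with the RNA before the pull-down (input). The mice were wild-type C57BL/6J animals, the tissue was whole liver, and both ages carried the same genotype with no treatment. The labels name 1 input and 1 IP sample at 2 weeks and the same at 8 weeks, of 10 samples at 5 ages, and the methods speak of 2 animals per age without saying how they were combined. The sex of the animals is not given in the labels. A peak is a stretch of a transcript where IP reads exceed input reads, and its fold is the IP over input ratio that the authors deposited. The 2 lists held 13573 of the 32804 peaks in the 4 distinct lists of the series, 8765 in 5521 genes at 2 weeks and 4808 in 3448 genes at 8 weeks. Peaks were matched when they lay on the same chromosome and strand and shared at least 1 base, and they were then called shared, 2-week-only or 8-week-only. The table for 4 weeks repeats all 8765 rows of the 2-week table outside the gene name and was left out, so which of these ages the list describes is not established. The number of genes in it is close to the one the study gives for the younger of these ages. Both lists hold fewer peaks than the study gives, and the shares and single-age counts below are those of the deposited lists.

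With 1 list per age there was no replicate, so no difference between the ages was tested and none has a replicate check. Shares are given with 95% Wilson intervals, which cover only the error of counting. Where a gene has no peak it was not called in that list, which does not show that its mRNA lacked m6A, and expression was not analysed here, so a missing call cannot be told apart from a low transcript level. Read totals are not given, so the depth is unknown. Low folds took few values: 74.6% of the 1936 folds from 5 to 10 at 2 weeks were whole multiples of 0.586 within 0.01, and 58.8% of 1022 at 8 weeks were whole multiples of 1.41. The step was thus 2.41 times as large at 8 weeks, and the median fold was 30.1 steps at 2 weeks (17.6) and 13 steps at 8 weeks (18.3). Folds were therefore read only within a list or by their place among all matched pairs. Peaks with a false discovery rate (FDR) above 0.05 made up 3.64% of the 2-week list (319 peaks) and 14.1% of the 8-week list (679 peaks).

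The peaks were checked against the liver label by marker genes, bearing in mind that a peak is not a level of expression. Of the hepatocyte, endothelial, stellate, and Kupffer and leukocyte markers, 2 of 6, 2 of 4, 2 of 3 and 2 of 4 had a peak at each age, and of the erythroid and cholangiocyte markers 0 of 5 and 0 of 3 did. The 8-week list also held strong peaks in genes of retinal photoreceptors, the light-sensing cells of the eye. Of a list of 35 such genes, drawn up after these peaks had been seen, 17 had a peak at 8 weeks and 5 at 2 weeks. Their values are given further on. Without them, the genes called at 8 weeks only numbered 896 in place of 908, and those called at 2 weeks only stayed at 2981.

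m6A is written on mRNA by a complex with Mettl3 as its catalytic subunit and Mettl14 and Wtap as partners, and it is removed by the demethylases Fto and Alkbh5. Readers such as the YTH proteins bind the mark and change how fast the mRNA decays or how well it is translated. The mark lies mostly in a short consensus with GGAC at its core and is concentrated in long internal exons and near the stop codon. Blood formation leaves the mouse liver soon after birth, cell division slows in the weeks that follow, and hepatocytes take on their full metabolic role as the diet changes from milk to solid food.

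Sequences are shown for strong peaks of each kind, so that the stretch behind a call can be read, with each GGAC in capitals. They were read from the RefSeq assembly GRCm38.p6, the same build as mm10, 5′ to 3′ on the strand of the gene. The first were called at 2 weeks only. Bmp10 (chr6:87433894-87433953, plus strand) and Mgea5 (chr19:45767931-45767990, minus) lie in coding sequence, Kank1 (chr19:25410651-25410710, plus) lies in a long peak of internal exon 5, and in Net1 (chr13:3884084-3884143, minus) GGAC begins 45 bases before the last base of the stop codon. The stretch of Scd1 (chr19:44394867-44394896, minus) is in the 3' UTR.
Bmp10: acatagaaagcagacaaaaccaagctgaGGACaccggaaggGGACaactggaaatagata
Mgea5: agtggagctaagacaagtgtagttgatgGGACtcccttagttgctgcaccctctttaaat
Kank1: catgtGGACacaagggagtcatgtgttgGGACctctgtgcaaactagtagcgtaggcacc
Net1: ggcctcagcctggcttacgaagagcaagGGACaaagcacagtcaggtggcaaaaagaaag
Scd1: catcagctcaggaGGACactctgggagagt

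The next were called at 8 weeks only. In Fbxo45 (chr16:32233147-32233206, minus), Osbp (chr19:11991918-11991977, plus), Itih5 (chr2:10251456-10251515, plus) and Tapt1 (chr5:44177021-44177080, minus) GGAC lay in the coding sequence 95, 96, 99 and 99 bases before the last base of the stop codon. Rbp3 (chr14:33955082-33955141, plus) is a photoreceptor gene, and its stretch lies in coding exon 1.
Fbxo45: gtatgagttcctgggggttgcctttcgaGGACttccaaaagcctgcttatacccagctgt
Osbp: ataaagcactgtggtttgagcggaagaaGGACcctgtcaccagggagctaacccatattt
Itih5: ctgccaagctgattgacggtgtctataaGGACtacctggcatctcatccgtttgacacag
Tapt1: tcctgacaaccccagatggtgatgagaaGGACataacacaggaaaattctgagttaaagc
Rbp3: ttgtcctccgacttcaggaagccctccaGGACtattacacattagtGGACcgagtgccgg

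The last come from peaks called at both ages, with a far higher fold at 8 weeks in Sult1a1 (chr7:126673004-126673033, minus, 3' UTR) and Filip1l (chr16:57571215-57571274, plus, coding sequence) and a far lower one in Inhba (chr13:16027059-16027118, plus, coding sequence 42 bases before the last base of the stop codon).
Sult1a1: agctaagagaataGGACtggggatgtagct
Filip1l: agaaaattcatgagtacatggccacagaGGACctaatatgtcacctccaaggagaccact
Inhba: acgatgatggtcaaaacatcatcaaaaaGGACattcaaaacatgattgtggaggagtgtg

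Of the 2-week peaks, 30.3% (2654 peaks; interval 29.3% to 31.2%) were overlapped by an 8-week peak, and of the 8-week peaks, 59.6% (2865 peaks; 58.2% to 61.0%) were overlapped by a 2-week peak. The other 6111 peaks were 2-week-only and 1943 were 8-week-only. The lists differ in length, and the gap between these shares narrowed when the 2-week list was held to its strongest 4808 peaks: 44.7% of the 2-week and 49.6% of the 8-week peaks were then overlapped. The overlaps formed 3060 pairs, 96.5% of them within the same gene. In 2248 pairs each peak met only the other, 338 2-week peaks met 2 or more 8-week peaks, and 182 8-week peaks met 2 or more 2-week peaks.

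Where a peak was called at both ages it was mostly called at the same place and was narrower at 8 weeks. In the 1-to-1 pairs the 8-week span lay inside the 2-week span in 66.5% (1496 pairs), the reverse held in 8.63% (194 pairs), and 4.98% (112 pairs) had identical spans. Median widths were 358 nt at 2 weeks and 211 nt at 8 weeks. In the 2141 pairs without an intron on either side the middles lay a median of 45.0 nt apart, and 95.3% of all 1-to-1 pairs had the same class, such as coding sequence or 3' UTR, at both ages.

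Strong peaks were matched far more often than weak ones. Each list was ordered by deposited p and divided into 10 equal groups. In the weakest group of the 2-week list 9.35% of the peaks were overlapped, and in the strongest 79.2% were (695 of 877; 76.4% to 81.8%). The 8-week list ran from 30.1% in the weakest group to 79.8% and 78.2% in the last pair of groups. Stronger groups also held wider peaks, with median widths from 150 to 570 nt at 2 weeks and from 151 to 361 nt at 8 weeks, and the part of width in the overlap was not tested. Shared 2-week peaks had a median fold of 40.9 and a median width of 360 nt, and 2-week-only peaks had 14.1 and 210 nt. At 8 weeks the medians were 23.3 and 210 nt for shared and 14.1 and 180 nt for 8-week-only peaks. Single-age peaks were thus the weaker and narrower ones at either age, but not all were weak: 253 of the 2-week-only peaks and 82 of the 8-week-only peaks had a fold of at least 100.

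**Figure D1:**
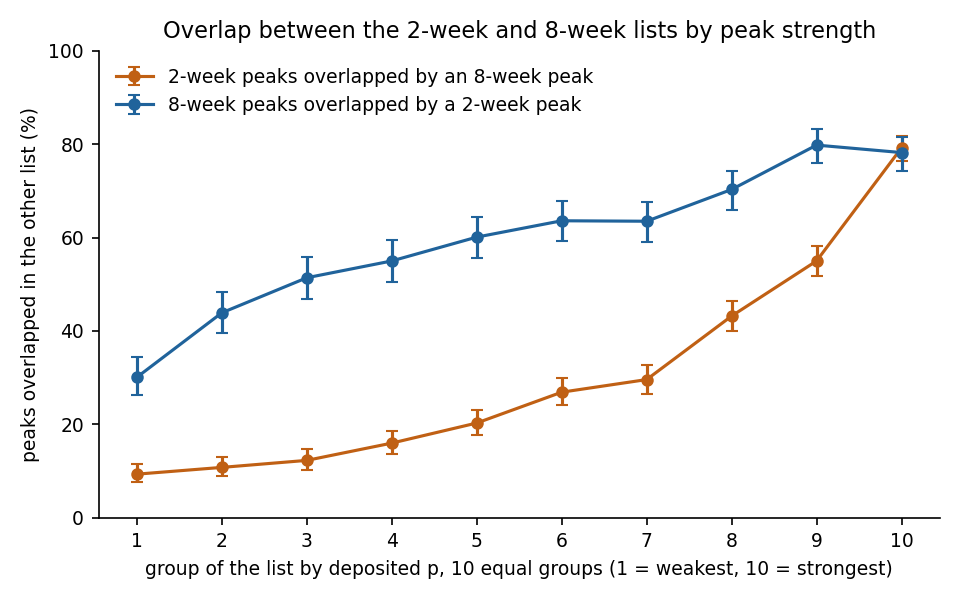
Percentage of peaks overlapped in the other list (y axis) in 10 equal groups of each list ordered by deposited p (x axis, 1 weakest, 10 strongest), with 95% Wilson intervals as bars. The 2-week line climbs from 9.35% to 79.2% and the 8-week line from 30.1% to 78.2%.

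The single-age groups differed in their overlap with the day 1 and 1-week lists of the same series, which were not used to sort the peaks. Of the shared peaks, 92.2% of the 2-week and 92.4% of the 8-week ones were overlapped by a day 1 or 1-week peak. Among 2-week-only peaks the share was 71.6% (4377 peaks; 70.5% to 72.7%), and among 8-week-only peaks it was 34.9% (679 peaks; 32.9% to 37.1%). The order held among peaks with a log10 FDR of at most -3, with 77.8% (3166 of 4068) and 38.5% (485 of 1259), and among those with a fold of at least 100, with 90.5% (229 of 253) and 43.9% (36 of 82). These limits were set on peaks already sorted on the full lists. A fold of 100 is not the same strength in both lists, as their folds share no scale. In the 8-week-only group 23.5% of the peaks had an FDR above 0.05, against 4.88% in the 2-week-only group. By the sorting, 8-week-only peaks lack a match in the 2-week list of 8765 peaks, and 2-week-only peaks in the 8-week list of 4808. The part of the sorting and of list length in the gap between the groups was not tested.

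Peaks in every group gathered at the stop codon, the shared ones most. Placed on the longest coding transcript, 28.3% of shared 2-week peak middles lay within 200 nt of the stop codon (26.6% to 30.1%), and 23.1% of 2-week-only ones did (22.0% to 24.2%). At 8 weeks the shares were 27.9% for shared (26.2% to 29.6%) and 23.7% for 8-week-only peaks (21.7% to 25.7%). An even spread over the same transcripts would give 10.7% to 11.3%. The intervals of shared and single-age peaks did not overlap at either age, while those of the 2-week-only and 8-week-only groups did. They cover counting error only, peaks are not replicates, and the shared groups of both ages come from the same overlaps. Shared peaks were also stronger and wider, and the part of this in their position was not tested.

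**Figure D2:**
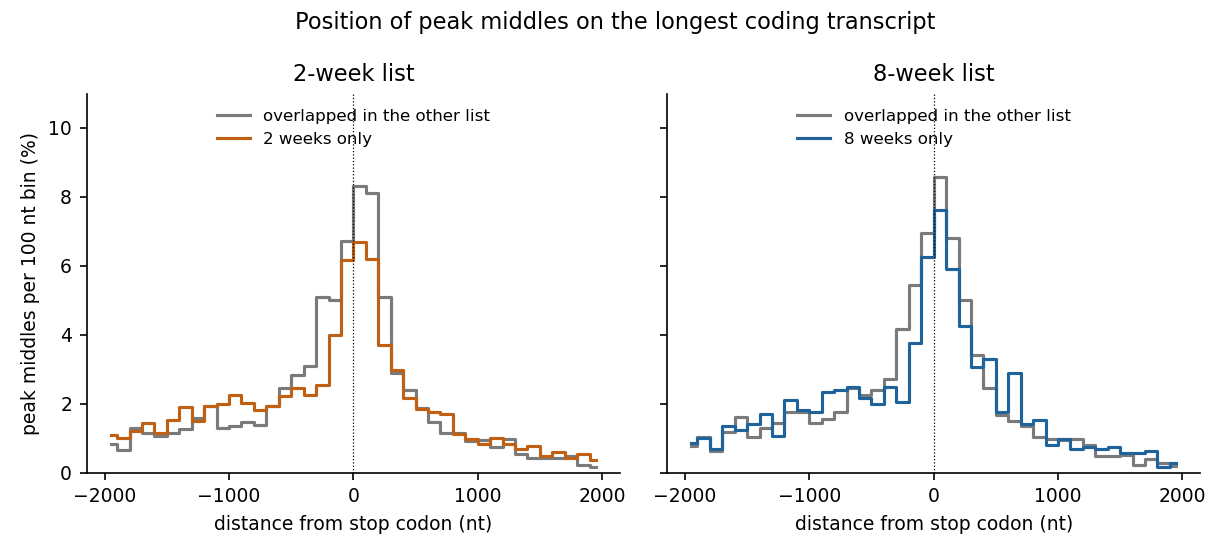
Percentage of peak middles per 100 nt bin (y axis) by distance from the stop codon on the longest coding transcript (x axis, nt), with shared peaks in grey and single-age peaks in colour. All groups peak next to the stop codon, where 28.3% of shared and 23.1% of 2-week-only middles lay within 200 nt.

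By the class given in the tables, peaks in the 5' UTR were matched less often than those in coding sequence, the 3' UTR and other exons. Of the 375 2-week peaks of this class 17.9% (67 peaks; 14.3% to 22.1%) were overlapped at 8 weeks, against 32.2% in coding sequence and 31.3% in the 3' UTR. Start and stop codon classes held at most 11 peaks per list and were not ranked. Among those with a log10 FDR of at most -3 the shares were 23.4%, 38.8% and 38.5%. From the 8-week side they were 47.5% in the 5' UTR (39.9% to 55.2%), 64.1% in coding sequence and 57.3% in the 3' UTR. Peaks of the 3' UTR made up 39.2% of 8-week-only peaks (37.1% to 41.4%) and 34.7% of 2-week-only peaks (33.5% to 35.9%).

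The consensus GGAC was searched on the transcript strand only, inside the exon blocks of each peak. It was found in 84.9% of shared and 68.5% of 2-week-only peaks at 2 weeks, and in 73.7% of shared and 60.8% of 8-week-only peaks at 8 weeks. Shared peaks were wider, so the density is given as well. Per kilobase of peak there were 5.96, 5.58, 6.21 and 5.43 matches in the same order, and 4.08 to 4.16 per kilobase over the whole transcripts that carried the peaks, so peaks held 1.43, 1.35, 1.49 and 1.33 times the transcript density. In windows of 151 nt around the peak middle GGAC was found in 62.8%, 56.8%, 62.1% and 53.8%. The longer word GGACT gave ratios of 1.55, 1.45, 1.67 and 1.46, and CAGG, the same bases in another order, gave 1.15, 1.12, 1.13 and 1.07.

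Among single-age peaks the density was higher in those with an earlier call. In 2-week-only peaks that were also called at day 1 or 1 week GGAC was 1.41 times as dense as in their transcripts, and in those called at no earlier age 1.12 times. The ratios for 8-week-only peaks were 1.47 and 1.25. In shared peaks the ratios were 1.43 and 1.52 at 2 weeks, the reverse order, and 1.5 and 1.47 at 8 weeks, nearly equal. For GGACT shared peaks did show the order, with 1.56 and 1.40 at 2 weeks and 1.68 and 1.46 at 8 weeks. The reordered word CAGG followed it in single-age peaks as well, with 1.14 and 1.00 at 2 weeks and 1.12 and 1.04 at 8 weeks. The 8-week-only peaks without an earlier call numbered 1261 in this count, and 57.3% of them held GGAC (54.5% to 60.0%).

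At the level of genes, 6429 had a peak in either list. Of these, 2981 (46.4%) were called at 2 weeks only, 908 (14.1%) at 8 weeks only and 2540 (39.5%) at both ages. These counts move with the length of the lists: with the strongest 4808 peaks of each list, 1408 genes were called at 2 weeks only, 1427 at 8 weeks only and 2021 at both. The gap between the single-age counts always equals the gap between the gene totals of the lists. Shortening the 2-week list had to shrink it, so this setting cannot show what the excess rested on. With a log10 FDR of at most -3 the counts were 2382 at 2 weeks only and 752 at 8 weeks only. Genes called at a single age had weak and few peaks. Their median best folds were 15.2 at 2 weeks and 15.5 at 8 weeks, against 42.7 and 28.2 in genes called at both, and 78.3% and 90.9% of them had 1 peak. Of the genes with 1 peak at 2 weeks 35.7% were called at 8 weeks, and of those with 4 or more 84.6% were. A peak at day 1 or 1 week was found in 77.8% of the 2-week-only genes (76.3% to 79.2%), in 46.5% of the 8-week-only genes (43.3% to 49.7%) and in 94.5% of the genes called at both. As for the peaks, the part of the sorting in these shares was not tested. Protein-coding genes made up 5970 of the 6429 and followed the shares of all genes, with 45.6%, 13.4% and 41.0%. Of the 117 antisense RNAs only 16.2% were called at both ages, and of the 89 processed pseudogenes 10.1%. The calling is not stated to use strand, and 3.88% of the 2-week and 3.72% of the 8-week peaks were overlapped by a peak of the same list on the other strand, so calls of antisense genes are uncertain.

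In 421 of the 2540 genes called at both ages (16.6%; 15.2% to 18.1%) no peaks overlapped. On the 394 whose transcripts could be used the nearest peaks lay a median of 818 nt apart, and in 65.7% they were more than 500 nt apart. Nr1h4, the bile acid receptor FXR, had 1 peak in its 3' UTR at 2 weeks (chr10:89454503-89454802, fold 72.6) and 1 in the coding sequence of exon 3 at 8 weeks (chr10:89498198-89498378, fold 7.23). Nr1i3, the xenobiotic receptor CAR, had 3 peaks at 2 weeks in the 5' UTR, coding sequence and 3' UTR with folds of 14.6, 49.8 and 4.03, and 1 at 8 weeks in the coding sequence of exon 5 with 25.4. Igf1r, the receptor of insulin-like growth factor 1, had its nearest peaks 719 nt apart, with best folds of 11.7 and 70.5. With a log10 FDR of at most -3 the number of such genes was 251, and when 50% of both peaks had to overlap it was 1111.

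Among the liver transcription factors, 39 of 43 listed genes had a peak, 24 (61.5%) at both ages, 9 (23.1%) at 2 weeks only and 6 (15.4%) at 8 weeks only. Over all genes the shares were 39.5%, 46.4% and 14.1%, so the last was near that of all genes. Those called at 2 weeks only included Rora, a nuclear receptor of lipid and clock control, with a fold of 153, Gata6 with 60.3, Cux2, known for its female-biased level in mouse liver, with 50.9, Zhx2, a postnatal repressor of fetal genes, with 32.2, and Atf5, Nr2f1, Esrrg and Nr2f6 with 14.1, 8.78, 7.03 and 6.44. All 9 also had a peak at day 1 or 1 week, beside 77.8% of all 2-week-only genes. The 6 called at 8 weeks only were Nr5a2, a regulator of bile acid genes, with 62.0, Hnf4a, the main hepatocyte nuclear receptor, with 51.4, Nr3c1, the glucocorticoid receptor, with 40, Nfia with 16.9, Srebf1, the activator of lipogenic genes, with 10.2, and Gata4 with 8.46. Of these, 3 had a peak at day 1 or 1 week, near the 46.5% of all 8-week-only genes. The study itself measured m6A on Hnf4a mRNA at 2 and 4 weeks by m6A-RIP-qPCR and found it lower in livers without Mettl3. From its m6A-RIP sequencing it also names Hnf4a among the liver factors with highly methylated mRNA, and shows read density there at several ages. The missing 2-week call of Hnf4a is thus not a lack of m6A at that age. Hnf4a carried 2 peaks at 8 weeks, one in the 3' UTR (chr2:163570182-163570541), which was also called at 1 week, and one at 5.96 in the 5' UTR, which was not called at any other age. Bcl6, Nr1h3, Nr1i2 and Srebf2 had no peak at either age.

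For the factors called at both ages the folds of each list are given, which share no scale, and their places in the lists were not compared. Cited2 had the highest best fold of these factors in both lists. Foxa1, a pioneer factor, had peaks in its coding sequence with folds of 21.1 and 74.7 and in its 3' UTR with 11.7 and 52.0, at 2 and 8 weeks. Foxa2, its relative, had best folds of 279 and 66.3, and Foxa3 of 38.1 and 29.6. Prox1, a factor of hepatoblast growth, was covered at 2 weeks by 1 peak of 1948 nt over 3 exons with a fold of 107, and at 8 weeks by 2 peaks of 121 nt each with 16.2 and 12.7. Onecut1 (HNF6) had a matched 5' UTR pair of 18.7 and 49.4, and its best peak at 8 weeks, 93.9 in exon 2, met no 2-week peak of Onecut1 itself. Best folds of the remaining factors called at both ages ran from 12.2 (Hhex) to 340 (Cited2) at 2 weeks and from 4.94 (Nfib) to 405 (Cited2) at 8 weeks.

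The gene lists are described by counts beside the shares over all genes, since no set test was made and their members were chosen with earlier results known. Cell cycle, fetal liver and blood genes had far more members at 2 weeks only than the 46.4% of all genes. The short lists of cholangiocyte markers (75.0%) and of Kupffer cell and leukocyte markers (66.7%) also lay well above it. Of 23 cell cycle genes with a peak 19 (82.6%) were called at 2 weeks only and 0 at 8 weeks only. Of 14 genes of the fetal liver and imprinted growth list 11 (78.6%) were, and of 7 erythroid and haematopoietic genes 6. With lists of equal length, where 29.0% of all genes were called at 2 weeks only, the shares of these 3 lists were 71.4%, 72.7% and 75%. Cholangiocyte markers stayed at 75.0%, and Kupffer cell and leukocyte markers went to 33.3%. Cenpf, a kinetochore protein, had 9 peaks at 2 weeks with folds up to 213 and none at 8 weeks. Mki67, the proliferation marker Ki-67, had 4 peaks at 2 weeks with folds of 206, 256, 153 and 28.7, the 3 strongest spanning 1768, 1977 and 2456 nt of exon 12, and at 8 weeks a single peak of 150 nt with a fold of 8.46 and a -log10 FDR of 0.124. Plk4, the kinase of centriole duplication, had 79.6 and Ccnd1, cyclin D1, 69.7, both at 2 weeks only. Among the growth genes, Grb10, an imprinted inhibitor of insulin signalling, had 182, Sox4 157, and Igf2, the fetal growth factor, 75. Slc4a1, the red cell anion exchanger, had 59.7. None of these was called at 8 weeks. Meg3 and Zbtb16 of the growth list were called at both ages, and Igf2bp2, an m6A reader, at 8 weeks only with 18.3.

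Chromatin regulators, immediate early genes and clock genes had most members called at both ages, against 39.5% of all genes. Other lists did too, among them endothelial markers (66.7%), liver transcription factors (61.5%) and m6A machinery (60.0%). Of 55 chromatin regulators 41 (74.5%) were called at both ages, 11 at 2 weeks only and 3 at 8 weeks only. Kdm6b, a histone H3K27 demethylase, had best folds of 689 and 98.7, Nsd1, an H3K36 methyltransferase, 516 and 265, and Tet2, which oxidises methylcytosine in DNA, 196 and 377. Tet3, of the same family, had 458 and 18.3 in 1 matched pair of the last exon. Of 28 immediate early and AP-1 genes 19 (67.9%) were called at both, Jun with 444 and 790 and Ier2 with 232 and 6.45, whose peaks overlapped in the 3' UTR. Of 16 clock genes 10 (62.5%) were, among them Nr1d2 (REV-ERB beta) with 208 and 548. Per2 at 82.0 was called at 2 weeks only, and Cry2 at 49.4 and Cry1 at 12.7 at 8 weeks only. Over all genes the share called at 8 weeks rose with the number of 2-week peaks and with their strength, and the part of this in the counts was not tested.

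Of the genes for m6A itself 15 of 25 had a peak, 9 (60.0%) at both ages, 4 (26.7%) at 2 weeks only and 2 (13.3%) at 8 weeks only. Over all genes the shares were 39.5%, 46.4% and 14.1%. The writer cofactors Rbm15 and Rbm15b had best folds of 171 and 69.1 and of 200 and 97.3, and the nuclear reader Ythdc1 209 and 80.5. The demethylase Fto was called in coding sequence at 2 weeks only with 46.8, and the other demethylase, Alkbh5, at both ages with 18.7 and 26.8. Wtap, of the writer complex, was called at 2 weeks only with 14.1. Ythdf3, a cytoplasmic reader, was called at 8 weeks only, with 2 coding peaks of 14.1 and 35.3, and its relatives Ythdf1 and Ythdf2 at both ages. Mettl3 and Mettl14 had no peak at either age.

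Of the metabolic lists, drug metabolism stood nearest to the shares of all genes, 46.4% at 2 weeks only, 14.1% at 8 weeks only and 39.5% at both. Of 36 drug metabolism genes 18 (50%) were called at 2 weeks only, 4 (11.1%) at 8 weeks only and 14 (38.9%) at both. Cyp4a12a, a fatty acid hydroxylase, had 2 peaks in its 3' UTR at 2 weeks with 152 and 86.1, and Ugt2b34, a glucuronosyltransferase, 94.3, both at 2 weeks only. Reads of such gene families can be split among near-identical copies, so their calls are uncertain. Gstt1, a glutathione transferase, was the strongest of the 4 at 8 weeks only with 39.5. Of 26 bile acid and cholesterol genes 11 (42.3%) were called at 2 weeks only, 14 (53.8%) at both and 1 (3.85%) at 8 weeks only. Cyp7a1, which starts bile acid synthesis, had 44.5 and 60.6, and Klb, a coreceptor of FGF signals, 118 and 46.5. Of 38 fatty acid and triglyceride genes 14 (36.8%) were called at 2 weeks only, 5 (13.2%) at 8 weeks only and 19 (50%) at both. Ppargc1a, a coactivator of fasting metabolism, was called at 2 weeks only with 67.9, and its relative Ppargc1b at both with 66.2 and 55.0. Of 32 genes of glucose, amino acid and urea metabolism 12 (37.5%) were called at 2 weeks only, 2 (6.25%) at 8 weeks only and 18 (56.2%) at both, and with folds of at least 5 the first share was 58.6%. The list includes Tdo2, which opens tryptophan breakdown, at 2 weeks only with 125, and the glycogen-targeting subunits Ppp1r3b and Ppp1r3c at both with 309 and 51.3 and with 367 and 84.6. Of 39 plasma protein genes 16 (41.0%), 6 (15.4%) and 17 (43.6%) were called in the same order. Apoa5, an activator of triglyceride clearance, had 3 peaks at 2 weeks of up to 191 and 1 at 8 weeks of 469 that overlapped all of them.

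Growth and patterning genes are given beside the 46.4%, 14.1% and 39.5% of all genes called at 2 weeks only, at 8 weeks only and at both. Of 34 genes of growth hormone and insulin signalling 10 (29.4%) were called at 2 weeks only, 4 (11.8%) at 8 weeks only and 20 (58.8%) at both. Igfbp3, the main carrier of IGF-1, was called at 2 weeks only with 185, Socs3, a brake on cytokine and growth hormone signals, at 8 weeks only with 26.8, and Irs1, the insulin receptor substrate, at both with 232 and 202. Of 22 Wnt and zonation genes 10 (45.5%) were called at 2 weeks only, 0 at 8 weeks only and 12 (54.5%) at both. Axin2, a feedback target of Wnt, was called at 2 weeks only with 128, as were Notum with 39.2 and Rnf43 with 35.7. Bcl9l, a beta-catenin cofactor, was called at both with 1330 and 377. Of 30 Hippo, Notch and TGF-beta genes 16 (53.3%) were called at 2 weeks only, with the Notch ligand Jag1 at 190 and its target Hes1 at 84.3, and 2 at 8 weeks only, Smad5 at 49.4 and Tead1 at 11.3. The other 12, near the share of all genes, were called at both. Lats2, a Hippo kinase, was among them with 421 and 116.

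Cell type markers were called at both ages most often in the endothelial list, with 8 of 12 genes (66.7%) beside 39.5% of all genes. Cdh5, VE-cadherin, had best folds of 578 and 196, and Ptprb, a vascular phosphatase, 333 and 327. Of 13 stellate cell markers 5 (38.5%) were called at 2 weeks only, 3 (23.1%) at 8 weeks only and 5 (38.5%) at both, beside 46.4%, 14.1% and 39.5% of all genes. Lrat, which makes retinyl esters, had a matched 3' UTR pair of 60.6 and 357, Pdgfrb 446 and 316, and Nes, nestin, 154 at 2 weeks only. The 3 at 8 weeks only were Col4a1 with 33.8, Ecm1 with 14.1 and Col1a1 with 9.87. Of 6 Kupffer cell and leukocyte markers 4 were called at 2 weeks only and 2, Clec4f and Csf1r, at both. Of 4 cholangiocyte markers 3 were called at 2 weeks only and Pkhd1 at both. In whole liver, fewer cells of a type and less RNA per cell cannot be told apart.

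**Figure D3:**
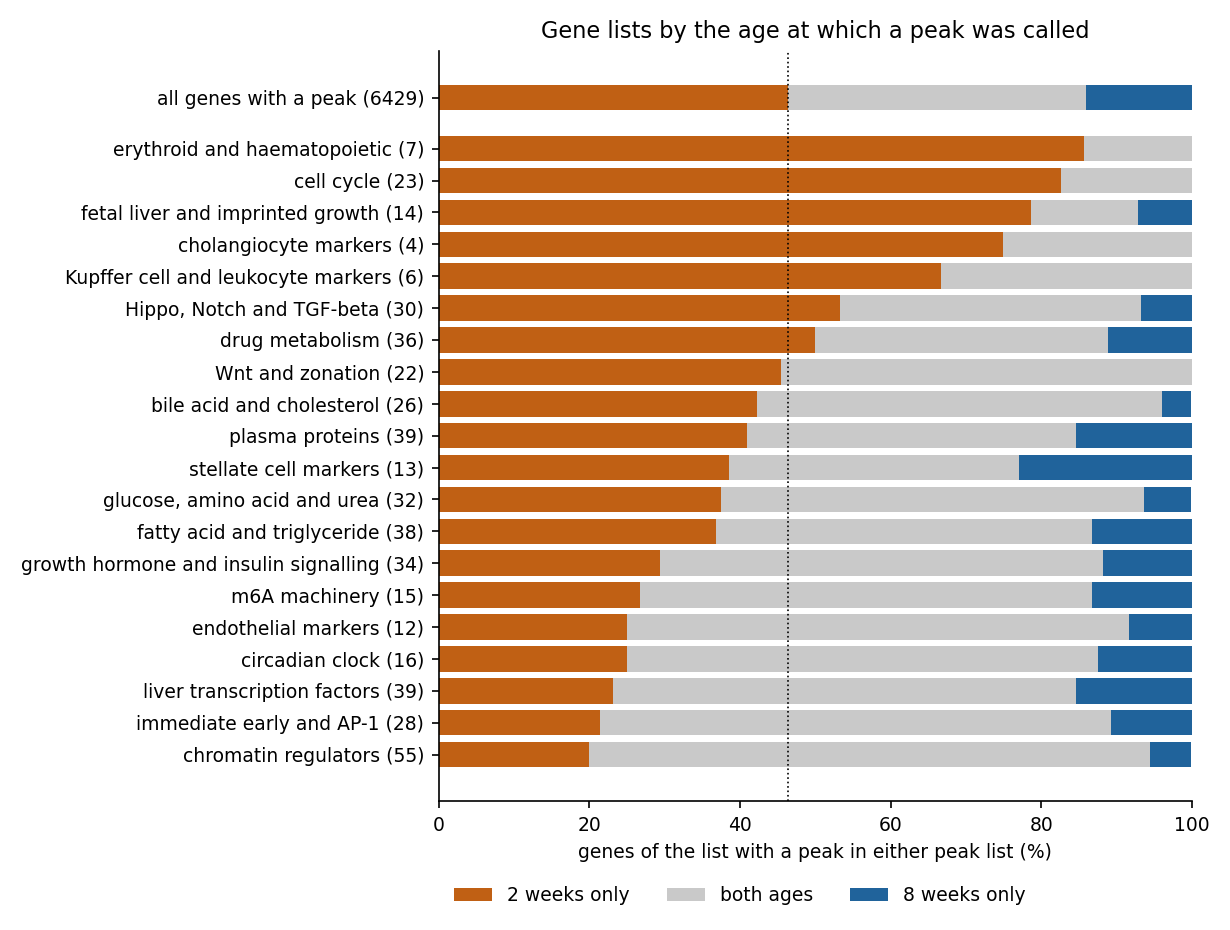
Genes of each list with a peak at either age (number in brackets), as the percentage called at 2 weeks only, at both ages or at 8 weeks only (x axis). The dotted line marks the 46.4% of all 6429 genes called at 2 weeks only, which erythroid, cell cycle and fetal liver genes exceeded most (85.7%, 82.6% and 78.6%) and chromatin regulators undercut most (20.0%).

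The 10 protein-coding genes called at 2 weeks only with the highest folds were led by Scd1, the desaturase that makes oleic acid. Its 3 peaks lay side by side in the 3' UTR of exon 6 of 6, chr19:44394481-44395615 with a fold of 1790, chr19:44395675-44396212 with 178 and chr19:44396421-44396630 with 17.6. None was called at day 1, 1 week or 8 weeks. Bmp10, a ligand of endothelial ALK1, followed with 525 over 630 nt of its last exon (chr6:87433577-87434206) that held 5 GGAC. Slc25a37, the iron importer of mitochondria used in haem synthesis, had 518, Mgea5, which removes O-GlcNAc from proteins, 448 and Net1, a guanine nucleotide exchange factor, 427. Traf3ip1, a protein of the cilium, had 413, Fbxo38 403, the laminin receptor subunit Itga6 367 and Kank1, an adhesion protein, 363 over 1797 nt of exon 5. Orm1, an acute-phase protein, had 455 and is 1 of several near-identical genes, so its value is uncertain.

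The 10 called at 8 weeks only ran from 591 to 210. Prps1l3 came first with 591, but it is a copy of a phosphoribosyl pyrophosphate synthetase gene and shares sequence with its relatives, so its value is uncertain. Fbxo45, a ubiquitin ligase subunit, had 471 in exon 3 of 3 (chr16:32232917-32233245). Osbp, the oxysterol-binding protein, had 420 (chr19:11991807-11992250), Mfsd12, a lysosomal transporter, 369 and Gatad2a, a NuRD subunit, 347. Itih5, a hyaluronan-binding protein, had 290, Tapt1 245 and Jaml, a leukocyte adhesion protein, 210. The other two, Pde6b with 453 and Rbp3 with 305, are photoreceptor genes.

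In the 1-to-1 pairs the median log2 ratio of the 8-week to the 2-week fold was -0.605, with quartiles of -1.83 and 0.605, and folds at the 2 ages were loosely related across the 2248 pairs (Spearman correlation 0.352, a description across peaks, which are not independent replicates). A ratio at least 4 times above the median was found in 318 pairs (14.1%) and at least 4 times below it in 331 (14.7%). With a log10 FDR of at most -3 in both lists the first share was 12.1%. Among the 1690 coding pairs at that limit the highest ratio was in Sult1a1, a phenol sulfotransferase of the liver. Its peak had the same span at both ages, 237 nt of the 3' UTR (chr7:126672895-126673131), with folds of 4.10 and 181. The centred log2 ratio, that is the ratio less the median over all pairs, was 6.07.

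The next highest were Lrit1, a photoreceptor protein, with 29.9 and 1190 (centred 5.92), Filip1l with 5.43 and 213 (5.90), Rfxap, a subunit of the factor that drives MHC class II genes, with 13.5 and 333 (5.23), Stard10, a phospholipid transfer protein, with 3.95 and 88.8 (5.10) and the zinc transporter Slc39a6 with 29.3 and 588 (4.93). Those with low folds at 2 weeks were not weak calls there: the -log10 FDR was 33.1 for Sult1a1 and 27.8 for Stard10. The lowest ratio was in Arhgap5, a GTPase-activating protein, whose exon 2 carried 630 nt with a fold of 1080 at 2 weeks (chr12:52516914-52517543) and 301 nt inside it with 4.46 at 8 weeks (centred -7.31). Parp14, an ADP-ribosyltransferase, followed with 214 and 3.79 (-5.21) and Inhba, the activin A subunit, with 603 and 12.7 (-4.96). Mup16, with 296 and 5.63, belongs to the near-identical major urinary protein genes and is uncertain. Mapk8ip3 and Mrps34, with 421 and 417 at 2 weeks and 8.56 each at 8 weeks, overlap on opposite strands and cannot be told apart without strand. At 8 weeks the -log10 FDR was still 57.1 for Arhgap5 and 10.8 for Parp14.

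**Figure D4:**
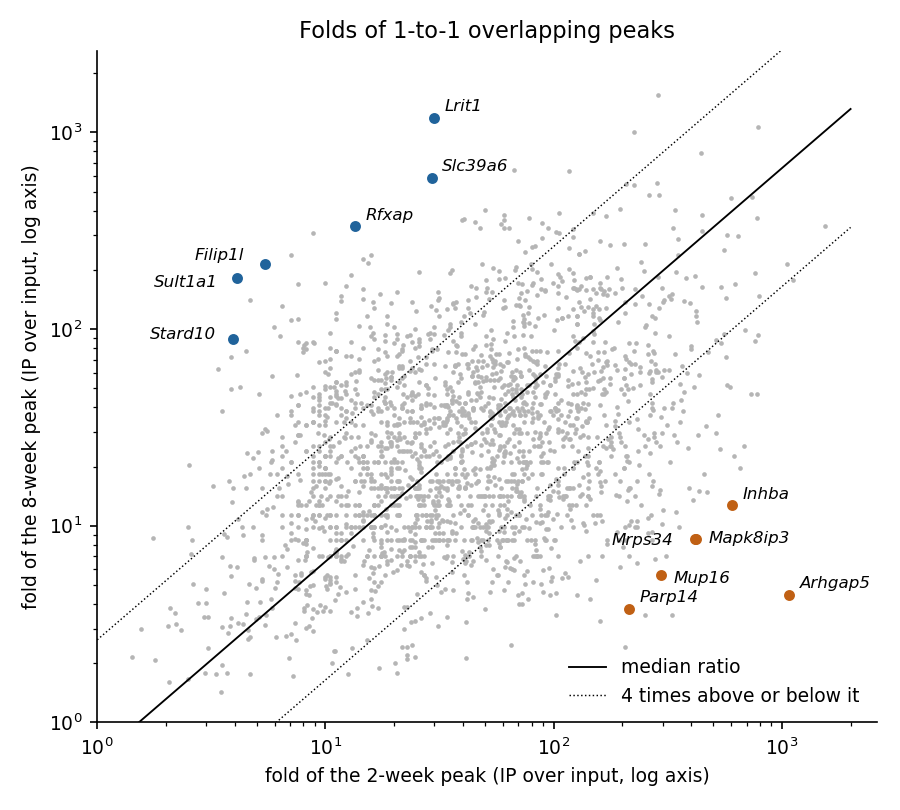
Fold (IP over input) at 2 weeks (x axis) and 8 weeks (y axis), both on log axes, for 2248 1-to-1 pairs, each a grey point, with the named pairs in colour. The solid line is the median ratio and the dotted lines are 4 times above and below it; 318 pairs lie beyond the upper and 331 beyond the lower line.

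Named here are genes called at both ages with the most peaks not overlapped in the other list. That their calls differed between the ages along their length follows from this choice. Over all peaks, 6111 of 8765 at 2 weeks and 1943 of 4808 at 8 weeks were not overlapped. At 2 weeks Zfhx3, a large homeobox factor, had 15 peaks, 12 of them not overlapped at 8 weeks, where it had 7. Its relative Zfhx4 had 13 with 11 not overlapped, Hivep1, a zinc finger protein, 11 with 10, Ahnak, a scaffold protein, 19 with 9, Kmt2a, a histone H3K4 methyltransferase, 9 with 8 and the cadherin Fat1 9 with 7. In Ahnak 10 of the 19 were overlapped, a larger share than the 30.3% of all 2-week peaks. In Fat1 the strongest 2-week peak, 411 in exon 22, was among those not overlapped, and both 8-week peaks lay on 2-week peaks in exons 25 and 27. In the other direction Ash1l, an H3K36 methyltransferase, had 6 peaks at 8 weeks, 5 of them not overlapped at 2 weeks. Its strongest, 386 in exon 2 (chr3:88965888-88966307), was in no earlier list. Setd2, also an H3K36 methyltransferase, had 5 peaks with 3 not overlapped, one of them 223 in exon 12 (chr9:110573790-110574149) and in no earlier list, while the pairs in exon 3 had folds of 28.3 and 34.5 and of 106 and 309. The synaptic scaffold gene Pclo had 4 of 4 not overlapped, Zbtb20 4 of 6 and Arid1a, a BAF subunit, 3 of 4.

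More photoreceptor genes were called at 8 weeks than at any other age. Of the 35, 17 were called there with 27 peaks, a median best fold of 57.8 and 12 genes at a log10 FDR of at most -3. At 2 weeks 5 were called with 6 peaks and a highest fold of 29.9, at 1 week 8 with 19 peaks and a highest fold of 129, and at day 1 1 with 2 peaks. The 12 called at 8 weeks only made up 70.6% of the 17 with a peak, beside 14.1% of all genes, but the list was chosen for these peaks and its share supports nothing. Rbp3, the retinoid-binding protein between retina and pigment epithelium, had 7 peaks in exon 1 with folds from 9.87 to 305. Rp1, of the photoreceptor axoneme, had 18.2 and 527 and Prph2, of the disc rim, 7.03 and 237, and at 1 week they had 50.2 and 53.1. Pde6b, a phosphodiesterase subunit of phototransduction, had 453, the channel Cnga1 110, the factors Nrl and Crx 70.5 and 39.5, and the exchanger Slc24a1 57.8, none of them called at 2 weeks. At 1 week Pde6b had 129 and Rbp3 up to 17.4 over 4 peaks, and the other four were not called. Gnat1, rod transducin, was called at every age, with 123 at day 1, 72.0 at 1 week, 12.9 at 2 weeks and 47.9 at 8 weeks. No peak was called in Sag, Pde6a, Pde6g, Abca4 or the cone opsins. Of other lists drawn up after the values were seen, 1 of 30 neuronal, 1 of 20 striated muscle and 0 of 17 male germ cell genes were called at 8 weeks, and 4, 0 and 0 at 2 weeks. The source of these peaks was not tested.

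**Figure D5:**
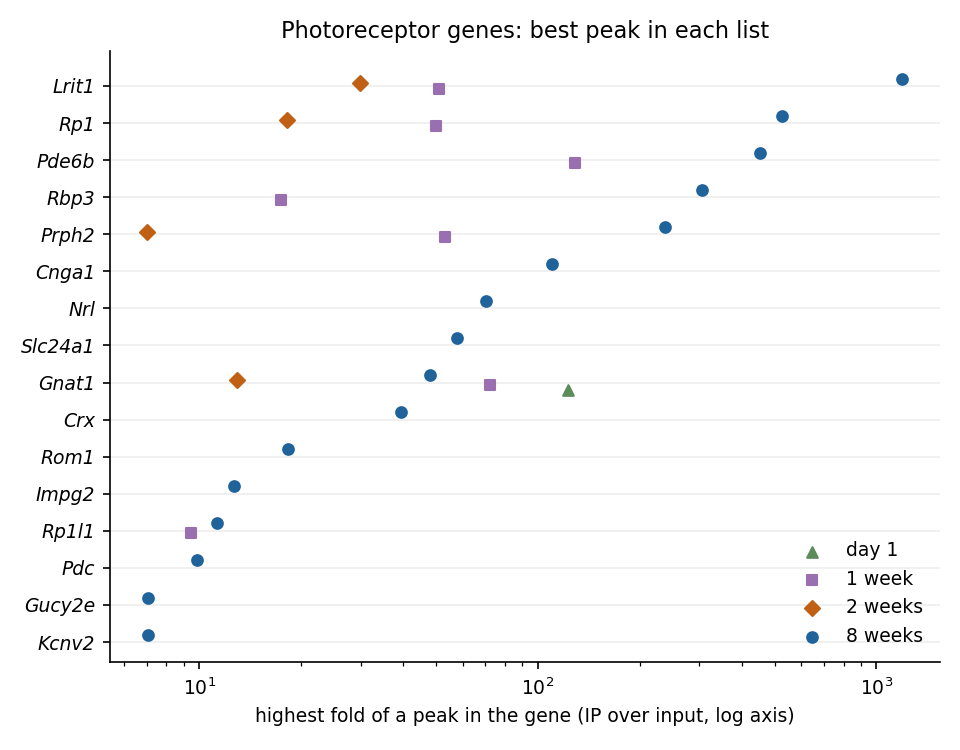
Highest fold of a peak (IP over input, log x axis) in photoreceptor genes called in any list (y axis), by list, with 1 gene not shown. The 8-week points run from 7.05 to 1190 and the 4 genes shown with a 2-week peak have a lower fold there, between 7.03 and 29.9, in lists that share no scale.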

How the data were processed

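m6A-RIP sequencing was performed by the authors on liver RNA of wild-type mice. Groups were taken from the sample titles. Per the labels and the methods, HISAT2 aligned the reads to mm10, exomePeak called peaks in IP against input, and HOMER was named for motifs. No source used here says how the animals of an age were combined. The deposited fold is a linear ratio of IP over input, and the deposited p-value and the log10 p and log10 FDR, treated here as a score, come from the authors' peak calling. Logarithms lost in the spreadsheet were set to 400 on the -log10 scale. Names that had turned into dates (12 at 2 weeks, 5 at 8 weeks) were looked up by Ensembl identifier. No read counts were given, so the depth is unknown.

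All deposited peaks were used. Peaks were matched between Thick start and Thick end, introns included, on the same chromosome and strand. Middles were placed on the longest coding transcript in GENCODE M21, and 99.7% of the peaks lay inside the span of their gene there. A fold 4 times or more from the median ratio was counted in 1-to-1 pairs. Python 3.11.15, pandas 2.3.3, numpy 2.4.6, pysam 0.24.0 and matplotlib 3.10.9 were used, and the matching was tested on simulated data. No test between ages was possible. Coordinates are counted from 1.

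The members, the 20 gene lists and the rules were chosen with earlier results of these data known, and 4 lists (photoreceptor, neuron, striated muscle, male germ cell) after the values had been seen. The genes named were protein-coding: all liver transcription factors, the 10 of each single-age group with the highest fold among peaks with a log10 FDR of at most -3, the 6 pairs with the highest and the 6 with the lowest centred log2 ratio at that limit in both lists, the 6 genes of each age with the most unmatched peaks, and from every other list at most 6 members by fold, with further members added after their values were seen. Some genes that these rules pick are not reported here. Alternatives were the stricter FDR limit of -3 on the log10 scale, folds from 5 up, lists of equal length, 50% reciprocal overlap, exon blocks, the best 8-week peak of each 2-week peak and protein-coding genes only. Those added after seeing the data are named with their values.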

Additional observations from a re-analysis of the deposited data

How the results depend on the processing

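No single result changed sign. The excess of 2-week-only over 8-week-only genes was absent with lists of equal length. That setting brings the gene totals together and so removes the excess by construction. With an equal number of peaks in both lists, the 2-week peaks overlapped went from 30.3% to 44.7% and the 8-week peaks from 59.6% to 49.6%, genes at 2 weeks only from 2981 to 1408 and at 8 weeks only from 908 to 1427, genes called at both ages without overlap from 421 to 266, and the peaks also called at day 1 or 1 week from 71.6% to 81.9% of 2-week-only and from 34.9% to 44.4% of 8-week-only peaks. With 50% reciprocal overlap the same measures were 18.8%, 34.2%, 1111 genes without overlap, 61.8% and 22.7%, and the median width of 2-week-only less shared peaks went from -150 to -62.0 nt. With a log10 FDR of at most -3 they were 32.1%, 61.4%, 251 genes, 78.9% and 43.1%, and pairs 4 times above the median ratio were 12.1%. Here the lists were filtered before the peaks were sorted. The shares called earlier therefore differ from the 77.8% and 38.5% of peaks filtered after sorting. A fold of at least 5 gave 73.4% for 2-week-only peaks called earlier. An FDR of at most 0.05, chosen after seeing the data, gave overlaps of 28.9% and 63.7% and earlier calls of 73.7% and 38.2%. Leaving out the photoreceptor genes, also chosen after seeing the data, moved none of these results by more than the counting interval. The remaining alternatives, 46 values of these results and 67 of motif densities and gene lists, stayed within 1.5 times or within the interval. In 4 the share at 2 weeks only moved: all genes (46.4% to 29.0%) and m6A machinery (26.7% to 8.33%) with lists of equal length, glucose, amino acid and urea genes (37.5% to 58.6%) with a fold of at least 5, and cholangiocyte markers (75% to 100%) with a log10 FDR of at most -3.

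No paired analysis was possible because there is 1 peak list per age. The depth is unknown and the step of the folds was coarser at 8 weeks, so a peak missing there cannot be taken as absent.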

Other observations

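Overlapping calls on opposite strands often repeated each other. Of the pairs of peaks on opposite strands within a list, 45.4% at 2 weeks (79 of 174) and 59.8% at 8 weeks (55 of 92) had the same deposited fold, and a further 2.53% and 2.66% of the peaks were overlapped on the same strand by a peak of another gene. Of the genes called at both ages but without overlapping peaks, 29.7% (125 of 421) had no class of position in common. Examples picked after their values were seen are Gpr182, an endothelial receptor, with best folds of 63.8 and 86.0 and the nearest peaks 255 nt apart, Sipa1l1 with 70.8 and 53.6 and 2997 nt, and Rgl1 with 49.2 and 128 and 434 nt.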
